A study of Mus musculus with 10 samples.

Results

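The genes described here are the aryl hydrocarbon receptor Ahr and 7 genes that work with it or are classic targets of it: Arnt, Ahrr, Tiparp, Cyp1a1, Cyp1a2, Cyp1b1 and Nqo1. They are listed by name, with earlier results of these data already known, and all 8 were present among the 33006 genes of the deposited count table. The RNA libraries came from E14 mouse embryonic stem cells in which the histone chaperone NPM1 carries an auxin-inducible degron (NPM1AID), a tag that marks the protein for destruction when auxin is added. There were 2 libraries of cells released from G1 for 12 h with auxin, and 2 libraries of cells released for 12 h without it. Both groups carried the degron and grew with LIF, 1 µM of PD0325901 (a MEK1/2 inhibitor) and 3 µM of CHIR99021 (a GSK3 inhibitor). H3K27me3, the mark of Polycomb repression, was read from peak lists of cells without auxin, by ChIP-seq at 6 h in 1 sample and by CUT&RUN at 12 h in 1 control sample, and the samples of this mark with auxin were not analysed here. The file headers name a single clone, number 38, for the RNA libraries, and the ChIP-seq peak names give the same number, so those results describe 1 clone. The clone of the CUT&RUN sample is not given in the sources used here. Every library with auxin had both the compound and the intended loss of NPM1, so effects of the compound and of the loss of the protein cannot be told apart. The labels do not say which auxin was used. Whether the replicates came from separate cultures is also not stated, so the p-values reflect no more than library-to-library spread, which may be technical.

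AhR is a transcription factor that sits in the cytoplasm with chaperones until a small flat aromatic molecule binds it. Its known ligands include dioxins, polycyclic hydrocarbons and many indoles, among them products of tryptophan, and the natural plant auxin is itself an indole. The bound receptor moves to the nucleus, pairs with ARNT and binds DNA at a short core, GCGTG, near genes of xenobiotic metabolism. AHRR and TIPARP, which are themselves induced by the receptor in many tissues, limit its activity.

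The depth was 13353446 and 16046290 fragments assigned to genes in the auxin libraries, against 14789851 and 15183126 in the libraries without auxin. The share of mitochondrial transcripts was 4.96% and 3.46% in the auxin libraries, against 4.06% and 3.52% without auxin. Npm1 itself had 11429 and 12907 fragments in the auxin libraries, against 15063 and 14030 without auxin, and its fitted log2 fold change was −0.32 (SE 0.06, adjusted p = 0.00337, edgeR's quasi-likelihood test with Benjamini-Hochberg adjustment). The degron acts on the protein, so this transcript does not check the labels. Pluripotency markers were abundant in all 4 libraries, with a summed level of 6946 to 7089 CPM (counts scaled to library size) with auxin and 7191 to 7292 CPM without. Of the 9 markers 2 were called higher and 4 lower with auxin by edgeR, against 13% higher and 14.5% lower among all tested genes.

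Promoter windows of 4 of the genes are shown because they carry the GCGTG core of the xenobiotic response element and because the genes differ widely in their RNA response, described next. Each runs from 250 bases before to 50 bases after the RefSeq start on GRCm38.p6, 5′ to 3′ on the gene's own strand. Capitals mark GCGTG or its reverse complement. The windows lie at chr9:57697363-57697662 on the plus strand for Cyp1a1, chr17:79715012-79715311 on the minus strand for Cyp1b1, chr13:74292282-74292581 on the minus strand for Ahrr and chr3:65528197-65528496 on the plus strand for Tiparp.
Cyp1a1: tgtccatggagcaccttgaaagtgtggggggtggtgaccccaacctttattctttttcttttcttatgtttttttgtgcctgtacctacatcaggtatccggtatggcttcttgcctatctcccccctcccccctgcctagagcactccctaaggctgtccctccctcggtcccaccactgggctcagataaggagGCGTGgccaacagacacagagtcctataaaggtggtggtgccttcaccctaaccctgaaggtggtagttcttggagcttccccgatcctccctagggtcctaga
Cyp1b1: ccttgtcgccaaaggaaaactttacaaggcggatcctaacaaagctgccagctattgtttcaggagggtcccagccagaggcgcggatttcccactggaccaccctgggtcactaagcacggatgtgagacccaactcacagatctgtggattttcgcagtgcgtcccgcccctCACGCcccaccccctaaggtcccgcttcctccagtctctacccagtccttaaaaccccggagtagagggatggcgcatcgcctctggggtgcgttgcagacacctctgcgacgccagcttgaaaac
Ahrr: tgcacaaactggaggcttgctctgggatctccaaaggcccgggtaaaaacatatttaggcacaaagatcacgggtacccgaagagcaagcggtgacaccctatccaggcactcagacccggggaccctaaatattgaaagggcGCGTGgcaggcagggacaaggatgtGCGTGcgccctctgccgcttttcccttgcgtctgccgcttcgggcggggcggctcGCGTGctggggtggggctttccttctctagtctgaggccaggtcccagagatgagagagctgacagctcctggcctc
Tiparp: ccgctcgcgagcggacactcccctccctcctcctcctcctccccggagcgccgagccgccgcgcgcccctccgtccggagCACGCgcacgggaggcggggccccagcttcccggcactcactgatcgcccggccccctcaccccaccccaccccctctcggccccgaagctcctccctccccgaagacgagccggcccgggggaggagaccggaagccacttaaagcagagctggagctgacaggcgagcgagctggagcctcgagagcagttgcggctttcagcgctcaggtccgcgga

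Both strands were searched for GCGTG. Ahrr held 3 matches, all on its own strand, at positions −107 to −103, −82 to −78 and −27 to −23 from the RefSeq start. The match nearest the start also fitted the longer form TNGCGTG, which overlaps the core. Cyp1a1 held 1 match at −54 to −50, Cyp1b1 held 1 on the opposite strand at −76 to −72, and Tiparp held 1 on the opposite strand at −170 to −166. Arnt held 1 match at −29 to −25, and Cyp1a2 and Nqo1 held none in the window. Of all 27025 RefSeq promoter windows, 32.5% held at least 1 GCGTG, 3.96% held at least 3, and 5.12% held TNGCGTG. The core was therefore common, and genes that held it included ones with a large change in RNA (Cyp1a1, Cyp1b1, Ahrr) and ones not called (Tiparp, Arnt). The antioxidant core TGACNNNGC, which NRF2 binds, was found in 12.5% of all windows and, among the 7 genes with a window, only in Arnt. A match is a run of letters and does not show binding. Enhancers farther upstream, where the best studied elements of Cyp1a1 lie, are outside these windows.

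The targets Cyp1a1, Cyp1b1, Ahrr and Nqo1 rose with auxin, while the receptor, its partner Arnt and the target Tiparp did not pass the test. The rise was steep for 3 of them, which were close to silent without auxin and clearly expressed with it. Of the 8 genes, 7 passed the filter on low counts, and Cyp1a2 did not. Cyp1a1, Cyp1b1 and Ahrr passed it only through the auxin libraries, so a difference was a condition of their being tested, and with the choice made knowing earlier results the counts that follow are descriptions. By edgeR's quasi-likelihood test with Benjamini-Hochberg adjustment over 13522 genes, 4 of the 7 were higher with auxin, against a background of 13% of all tested genes called higher. None of the 7 was called lower, against 14.5% of all tested genes, and in either direction 27.5% of all tested genes were called. None was lower at an unadjusted p under 0.05 by edgeR, against 20.4% of all tested genes. DESeq2 called the same 4 higher, against 7.77% of the genes it tested, and none lower, against 11.3%. Both auxin libraries lay above both libraries without auxin for 5 of the 7, against 33% of all tested genes, and below them for 0 of the 7, against 31.8%. On the log2 scale the 7 had a median change of 1.11, against 0.01 over all tested genes. Called with at least a 4-fold rise were 3 of the 7, against 0.281% of all tested genes. In bulk RNA, a change in how many cells express a gene and a change in RNA per cell cannot be told apart, here and in all that follows.

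**Figure D1:**
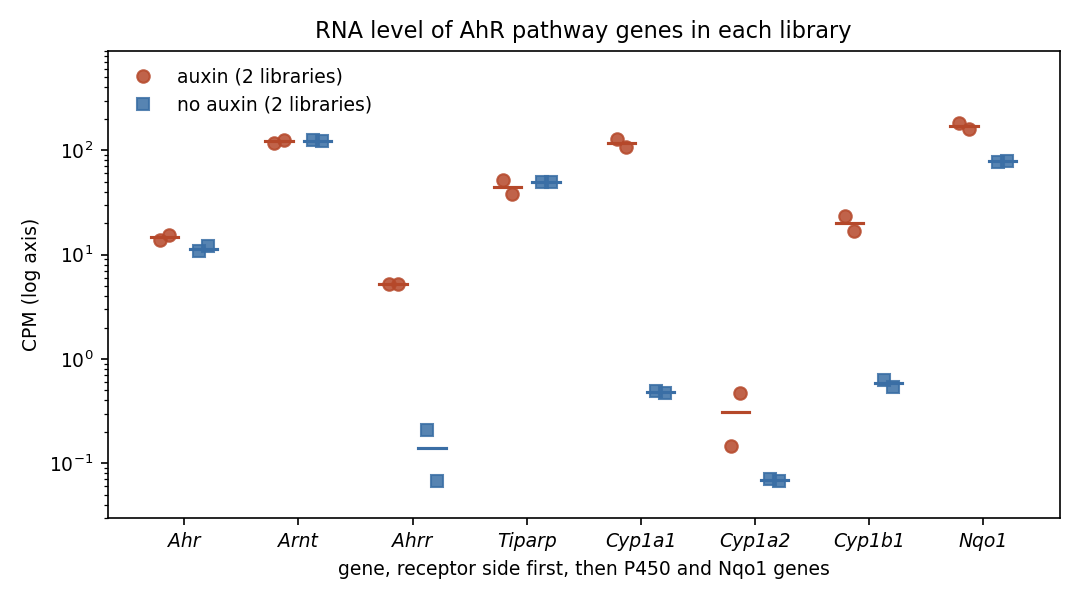
Level of each of the 8 genes in every RNA library, in CPM on a log axis, with auxin (circles, left of each pair) and without auxin (squares). Short lines are means of 2 libraries. The Cyp1a1, Cyp1b1 and Ahrr points with auxin sit far above those without, the Nqo1 points sit apart by a smaller step, and the Arnt and Tiparp points of the groups overlap.

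Cyp1a1, the cytochrome that oxidises polycyclic aromatic hydrocarbons and the standard readout of AhR activity, is encoded at chr9:57697613-57703822 on the plus strand of mm10. It had 1749 and 1827 fragments in the auxin libraries, against 7 and 7 in the libraries without auxin. All fragments but a handful therefore came from the auxin libraries, and the replicates of each group lay close together. The level was 119 ± 14.5 CPM with auxin and 0.483 ± 0.0121 CPM without (SD, n = 2 each). The fitted change was 7.91 on the log2 scale (SE 0.18, 95% interval 7.52 to 8.30), or 241-fold (184 to 316), with an adjusted p of 5.28e-10 by edgeR's quasi-likelihood test. This was the largest fitted log2 fold change among the 13522 tested genes. It held under all 9 alternatives, between 7.79 and 8.04. The ratio of summed counts, scaled to depth, was 244 with an exact 95% counting interval of 145 to 446. This covers counting error only and is still wider than the fitted interval, so the fitted interval and SE understate the uncertainty.

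Cyp1b1, a related cytochrome that acts on hydrocarbons and on oestradiol, lies at chr17:79706953-79715041 on the minus strand. It had 320 and 283 fragments in the auxin libraries, against 9 and 8 without auxin. The groups were far apart, though the auxin libraries differed more from each other than they did for Cyp1a1 when scaled to depth, at 23.6 and 16.8 CPM. Without auxin the level was 0.632 and 0.542 CPM. The fitted change was 5.08 on the log2 scale (SE 0.28, 95% interval 4.47 to 5.69), or 33.7-fold (22.1 to 51.5), with an adjusted p of 6.67e-07 by edgeR's quasi-likelihood test. The ratio of summed counts, scaled to depth, was 33.8 with an exact 95% counting interval of 20.9 to 58.4. Counting error alone thus gave a wider interval than the fit.

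Ahrr, the receptor's repressor, which competes with AhR for ARNT, lies at chr13:74211118-74292331 on the minus strand. It had 71 and 88 fragments in the auxin libraries, against 3 and 1 without auxin. Scaled to depth, the auxin libraries were almost equal, at 5.24 and 5.23 CPM, and the libraries without auxin held too few fragments to separate from a level near 0. The ratio of summed counts, scaled to depth, was 37.9 with an exact 95% counting interval of 14.5 to 141, which covers counting error only. The adjusted p was 9.62e-06 by edgeR's quasi-likelihood test, and the call held under all 9 alternatives. The fitted log2 fold change was 5.16 (SE 0.41), 6.11 without the first library without auxin and 4.58 without the second, so its size rests on which of these near-empty libraries is kept. By the fitted log2 fold change Ahrr ranked 3 and Cyp1b1 ranked 4 of all tested genes.

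Nqo1, a quinone reductase that both AhR and NRF2 are known to induce, lies at chr8:107388225-107403206 on the minus strand. It had 2460 and 2667 fragments in the auxin libraries, against 1110 and 1172 without auxin. Both auxin libraries were above both libraries without auxin, and the level without auxin was already high. The level was 170 ± 16.3 CPM with auxin and 78.7 ± 1.05 CPM without (SD, n = 2 each). The fitted change was 1.11 on the log2 scale (SE 0.07, 95% interval 0.95 to 1.26), or 2.16-fold (1.93 to 2.402), with an adjusted p of 2.4e-06 by edgeR's quasi-likelihood test. Among all tested genes it ranked 362 by fitted log2 fold change.

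Cyp1a2, best known as a liver cytochrome that metabolises caffeine and arylamines, lies at chr9:57676937-57683655 on the minus strand, head to head with Cyp1a1. It had 2 and 8 fragments in the auxin libraries, against 1 and 1 without auxin. The higher auxin library was the second, and the counts in the other 3 libraries were at or under 3. The ratio of summed counts, scaled to depth, was 4.77 with an exact 95% counting interval of 1.02 to 44.7. With the filter on low counts removed, the adjusted p was 0.239 by edgeR's quasi-likelihood test. Cyp1a1 and Cyp1a2 are paralogs, so fragments that match both are of uncertain origin. At this depth a change of Cyp1a2 across libraries could not be shown.

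Tiparp, an ADP-ribosyl transferase that is induced by AhR in many tissues and acts back on the receptor, lies at chr3:65528410-65555145 on the plus strand. It had 700 and 640 fragments in the auxin libraries, against 707 and 730 without auxin. Scaled to depth, the first auxin library was at 51.6 CPM and the second at 38.01 CPM, on either side of the 49.7 and 49.5 CPM without auxin, so the groups overlapped. The fitted log2 fold change was −0.15 (SE 0.12, 95% interval −0.41 to 0.10), with an adjusted p of 0.356 by edgeR's quasi-likelihood test. The interval leaves out rises of the size seen for Nqo1, Cyp1b1 or Cyp1a1. The small value rested on 1 library: without the second auxin library the log2 fold change was 0.06 (adjusted p = 0.734), and without the first it was −0.38 (adjusted p = 0.00273), both by edgeR.

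Ahr, the receptor itself, lies at chr12:35497974-35535038 on the minus strand. It had 187 and 260 fragments in the auxin libraries, against 154 and 178 without auxin. Scaled to depth this was 13.8 and 15.4 CPM with auxin, against 10.8 and 12.1 CPM without, so both auxin libraries were the higher ones by a small step. The fitted log2 fold change was 0.36 (SE 0.13, 95% interval 0.07 to 0.64), with an adjusted p of 0.0619 by edgeR's quasi-likelihood test, which missed the threshold of 0.05. Over the 9 alternatives the change lay between 0.27 and 0.44 and the adjusted p between 0.00782 and 0.298, and 4 of the 9 called it higher. A step of this kind was common, as the 33% given above shows.

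Arnt, the partner that AhR shares with the hypoxia factors, lies at chr3:95434388-95497240 on the plus strand. It had 1592 and 2134 fragments in the auxin libraries, against 1781 and 1794 without auxin. Scaled to depth the values were 117 and 127 CPM with auxin, against 125 and 122 CPM without, and the groups overlapped. The fitted log2 fold change was −0.01 (SE 0.06, 95% interval −0.15 to 0.12), with an adjusted p of 0.886 by edgeR's quasi-likelihood test. The sign was positive under upper-quartile scaling and with either of 2 libraries left out, so no direction can be given.

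**Figure D2:**
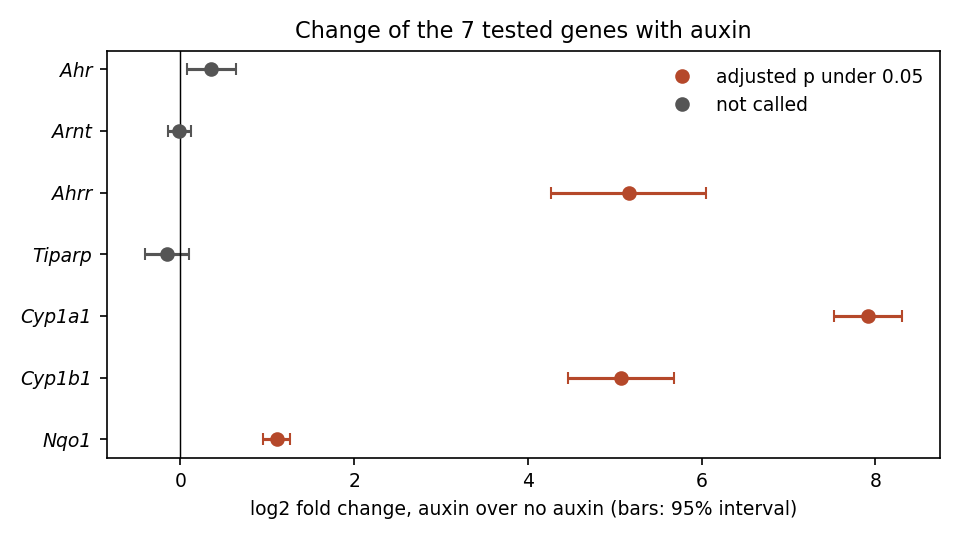
Fitted log2 fold change, auxin over no auxin, of the 7 tested genes, with 95% intervals from 2 libraries a group. Red marks an adjusted p under 0.05 by edgeR's quasi-likelihood test. The intervals of Cyp1a1, Cyp1b1 and Ahrr lie far to the right of that of Nqo1, and those of Arnt and Tiparp span 0. For Cyp1a1, Cyp1b1 and Ahrr the fitted intervals shown are narrower than the counting intervals given in the text.

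Levels can be compared between genes only per length, and TPM values (length-scaled shares of a library), computed from the counts and the exon lengths of the table, were used for that. With auxin, Nqo1 was the highest at 280 ± 12.985 TPM, followed by Cyp1a1 at 116 ± 8.42 TPM, Arnt at 39.1 ± 4.05 TPM and Tiparp at 28.7 ± 4.76 TPM. Cyp1b1 at 10.0 ± 1.90 TPM, Ahr at 6.09 ± 0.787 TPM, Ahrr at 1.44 ± 0.0694 TPM and Cyp1a2 followed (SD, n = 2). Without auxin, Nqo1 also led at 119 ± 4.54 TPM, ahead of Arnt at 36.2 ± 0.173 TPM, Tiparp at 29.3 ± 0.652 TPM and Ahr at 4.37 ± 0.445 TPM. Cyp1a1 at 0.434 ± 0.000163 TPM and Cyp1b1 at 0.269 ± 0.0225 TPM came next, and Cyp1a2 and Ahrr were lowest. In both groups the ranges of neighbours in this order did not overlap. Without auxin, Cyp1a1, Cyp1b1, Cyp1a2 and Ahrr had 9 fragments or fewer in each library, so the order among these is not established. Their SDs there do not show precision. The main shift of order was that Cyp1a1 stood above Arnt, Tiparp and Ahr with auxin and below all 3 without.

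Ratios of TPM within a library show the same shift without any scaling between libraries. Cyp1a1 stood at 10.7 and 12.6 times Cyp1b1 in the auxin libraries, against 1.52 and 1.71 times without auxin. The ratio of Ahrr, the repressor, to Ahr was 0.251 and 0.224 in the auxin libraries, against 0.0129 and 0.00371 without auxin. Without auxin both ratios rest on genes with 9 fragments or fewer in each library, so those values are imprecise. Arnt exceeded Ahr in every library, by 6.55 and 6.32 times with auxin, against 8.90 and 7.76 times without.

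Other genes reported as AhR targets in liver, gut or immune cells were mostly not expressed or did not rise. Of 21 such genes, 6 passed the filter, 15 did not, and 8 of these had no fragment in any library, among them Xdh, Serpinb2, Igfbp1 and Gsta1. Of the 6, Nfe2l2, which encodes the antioxidant factor NRF2, rose, and Socs2, Slc7a5 and Ido2 fell, where 13% of all tested genes were called higher and 14.5% lower. Nfe2l2 averaged 164 ± 7.14 CPM with auxin and 135 ± 8.49 CPM without (SD, n = 2 each), a log2 fold change of 0.29 (SE 0.06, adjusted p = 0.00577, edgeR), and without the second library without auxin it was 0.22 (adjusted p = 0.054, edgeR). The log2 fold changes were −0.50 for Socs2, a brake on cytokine signalling, −0.29 for the amino acid transporter Slc7a5 and −0.63 for the tryptophan-degrading enzyme Ido2. The list's median was −0.11, against 0.01 over all tested genes. The number of falls in this list was 1 when either library without auxin was left out and when DESeq2 was used. Aldh3a1, an aldehyde dehydrogenase that often rises with Cyp1a1, had 22 and 17 fragments in the auxin libraries, against 11 and 16 without auxin, and did not pass the test (adjusted p = 0.405, edgeR). Members of the Ugt1a cluster share exons, and their few fragments are uncertain.

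The receptor's chaperones and coactivators were all expressed, and their changes were small. Of 15, 1 rose and 5 fell, against 13% higher and 14.5% lower among all tested genes, with a list median of −0.13. The count of rises was 0 to 4 over the alternatives. The one that rose was Ncoa2, a coactivator of nuclear receptors (log2 fold change 0.29), and those that fell were the chaperone Hsp90ab1 (−0.24), Ddb1 (−0.24), Tbl3 (−0.32), Ncoa1 (−0.33) and Ep300 (−0.21). The count of falls was 10 under the replicate block and 3 without the first library without auxin. A list of 16 other genes held factors of the bHLH-PAS family, to which AhR and ARNT belong. It also held Per1, Per2 and Per3, which have PAS domains without the bHLH part. Of the 16, 11 were tested. The circadian genes Clock (log2 fold change 0.51, adjusted p = 0.000803, edgeR) and Per3 (0.90, adjusted p = 0.0155, edgeR) rose. None of the 11 fell by edgeR or DESeq2. Among all tested genes, 13% were called higher and 14.5% lower by edgeR, and 7.77% and 11.3% by DESeq2. At an unadjusted p under 0.05 by edgeR the numbers in this list were 5 higher and 0 lower, against 19.5% higher and 20.4% lower among all tested genes. DESeq2 called 1 gene of this list higher. The list median was 0.15.

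NRF2 targets were followed because Nqo1 is one of them. Of 17 other NRF2 targets, 16 were tested, 8 rose, 1 fell and 7 were not called, and the median change was 0.25 on the log2 scale. The share of rises among all tested genes was 13%, as given above. Srxn1, which repairs oxidised peroxiredoxins, averaged 63.4 ± 9.57 CPM with auxin and 29.0 ± 1.52 CPM without (SD, n = 2 each), a log2 fold change of 1.13 (SE 0.10), close to that of Nqo1. Sqstm1, an autophagy adaptor, rose by 0.52 (SE 0.05) and Me1, a source of NADPH, rose by 0.78 (SE 0.08) on the log2 scale. The glutathione synthesis genes Gclm (0.44) and Gclc (0.36), and Pgd, Gstm1 and Osgin1 also rose, and Osgin1 passed the filter only through the auxin libraries. Tkt was the gene called lower (−0.16), where 14.5% of all tested genes were called lower. DESeq2 called 0 genes of the list lower, and the replicate block called 4. At an unadjusted p under 0.05 by edgeR 8 were higher and 3 lower, against 19.5% and 20.4% of all tested genes. Hmox1, a heme oxygenase that NRF2 and heme both control, was not called, at 135 ± 3.63 CPM with auxin and 128 ± 12.1 CPM without (SD, n = 2 each, adjusted p = 0.385, edgeR). Over the 9 alternatives the number of rises was 7 to 9.

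Other routes of xenobiotic and indole handling were read from further lists. The nuclear receptors PXR and CAR and their P450 genes are a separate drug-response system. Of 15 genes of that system 4 were tested, 2 rose and 0 fell, against 13% higher and 14.5% lower among all tested genes. The 2 were Por, the reductase that feeds electrons to P450 enzymes (log2 fold change 0.22), and Abcb1a, a drug efflux pump (0.33). Neither was called by DESeq2. Of 14 genes of tryptophan and indole handling, 8 were tested, 3 rose and 1 fell, beside the same 13% and 14.5% of all tested genes. Slc36a4 (0.97) and Slc16a10 (0.65), both amino acid transporters, and Kyat3 (0.36) rose, and Ddc (−0.32) fell. None of these 4 was called by DESeq2, and without the first library without auxin the list had 0 rises and 0 falls. None of 9 other ADP-ribosyl transferases, relatives of Tiparp, was called by edgeR or DESeq2, and 3 were higher and 0 lower at an unadjusted p under 0.05 by edgeR, beside the 19.5% and 20.4% of all tested genes given above. Under the replicate block 3 of the 9 were called higher, and under upper-quartile factors 2. The median of that list was 0.22, and Parp10 had a log2 fold change of 0.93 (adjusted p = 0.083, edgeR).

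**Figure D3:**
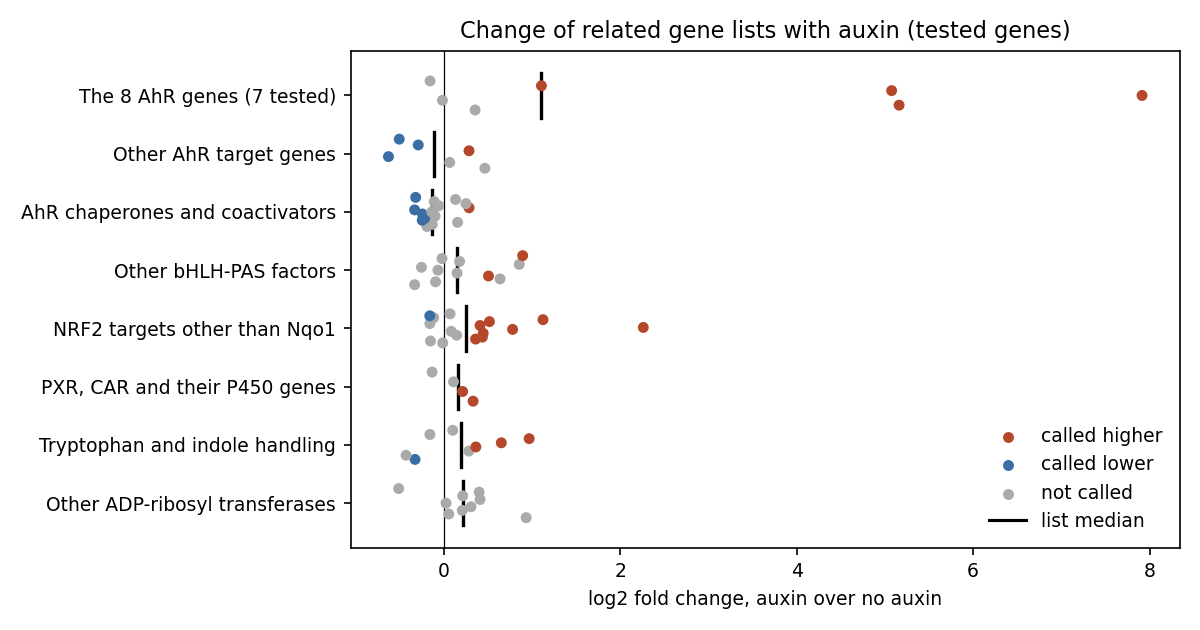
Log2 fold change, auxin over no auxin, of each tested gene of the 8 AhR genes and of 7 related lists. Colours mark genes called higher or lower by edgeR, grey marks genes not called, and black bars are list medians. Cyp1a1, Cyp1b1 and Ahrr stand apart at the right, and the largest value in the other lists is Osgin1 among the NRF2 targets.

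Markers of other cell types were read beside these results, since these cytochromes are known from hepatocytes, fibroblasts and trophoblast. Of 9 trophoblast markers 7 were tested and 4 rose, Cdx2, Gata3, Hand1 and Tfap2c, against 13% of all tested genes called higher. The keratins Krt7, Krt8 and Krt18 were not called, and Elf5 and Prl3d1 were at 0 in every library. DESeq2 called 3 of the trophoblast markers higher. The summed level of the 9 trophoblast markers was 134 to 146 CPM with auxin and 78.5 to 90.2 CPM without. Of 12 fibroblast markers 7 were tested, Pdgfrb rose and Vim fell, against 13% higher and 14.5% lower among all tested genes. The fitted change was positive for 6 of the 7, and the median of the 7 was 0.18 on the log2 scale. The summed level was 336 to 345 CPM with auxin and 380 to 395 CPM without, most of it from Vim, at 236 ± 7.77 CPM with auxin and 296 ± 7.02 CPM without (SD, n = 2 each). DESeq2 called 0 fibroblast markers higher. Col1a1 had 43 and 51 fragments with auxin, against 32 and 31 without, and Fbln1 had 1101 and 1299 with auxin, against 1122 and 1065 without. Postn, Lum and Dcn were at 0 to 7 fragments in every library. Of 9 endoderm and hepatocyte markers none of the 4 tested was called by edgeR or DESeq2. At an unadjusted p under 0.05 by edgeR 2 of the 4 were higher, against 19.5% of all tested genes. The summed level of these 9 was 11.5 to 14.7 CPM with auxin and 9.76 to 9.90 CPM without. Alb and Ttr, the defining hepatocyte genes, were at 0 in every library. The part of trophoblast or fibroblast gene expression in the rise of the AhR targets was not tested.

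Genes close to the steeply rising members were compared to see whether a change extended along the chromosome. Within 100 kb of Cyp1a1 lay 8 genes, of which 4 were tested. Of these 4, 2 rose, against 13% of all tested genes called higher. They were Csk, a kinase that inhibits Src, 51960 bp away (log2 fold change 0.35, adjusted p = 0.00266, edgeR), and Arid3b, a DNA-binding protein, 86531 bp away (0.29, adjusted p = 0.0044, edgeR). The other 2 tested genes lay nearer. Edc3, an mRNA decapping factor 4718 bp away, had 1026 and 1138 fragments in the auxin libraries, against 1038 and 1060 without auxin, and a log2 fold change of −0.02. Clk3, a splicing kinase 46889 bp away, had 0.09, and neither Edc3 nor Clk3 was called. Within 100 kb of Ahrr lay 7 genes, of which 5 were tested. None of the 5 was called by edgeR, and 1, Pdcd6, was lower at an unadjusted p under 0.05, against 20.4% of all tested genes. Exoc3, a subunit of the exocyst, 2418 bp away, had a log2 fold change of 0.13. Within 100 kb of Cyp1b1 the tested neighbour Rmdn2 had a log2 fold change of 0.16 (adjusted p = 0.586, edgeR).

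The genes with the profile nearest to Cyp1a1 were sought by the Euclidean distance between centred log2 CPM values over the 4 libraries. These values used a prior count of 2, which shrinks the change of genes with few fragments. Cyp1b1 stood at 2.79 and Ahrr at 3.29, nearer than any gene outside the 8. With 2 libraries a group this distance mostly follows the size of the rise, so it is no likeness separate from the fold changes given above. By fitted log2 fold change Slc24a5 ranked 2, ahead of both, and its few fragments place it farther away here. The 5 nearest others were Slc24a5 at 4.52, Cd4 at 4.68, Lrrc15 at 4.79, Eif4e1b at 4.81 and Mal at 5.10. Slc24a5, a cation exchanger of melanosomes, had 14 and 16 fragments with auxin, against 0 and 0 without, at least 9.53-fold higher with the floor set at 3 counts over the group. Lrrc15, a membrane protein, had 286 and 338 fragments with auxin, against 38 and 45 without, and Cd4, a T cell co-receptor, had 41 and 96 with auxin, against 5 and 7 without. Eif4e1b, an oocyte translation factor, had 16 and 23 with auxin, against 1 and 1 without, a depth-scaled ratio of 18.6 with an exact 95% counting interval of 4.81 to 159. Mal, a membrane lipid-raft protein, had 60 and 55 with auxin, against 12 and 5 without. Nqo1 stood at 6.48, Ahr at 7.24, Arnt at 7.603 and Tiparp at 7.75.

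H3K27me3 was examined at the same genes in cells without auxin, with no replicate in either assay, to see which of them carried the Polycomb mark in that state. The fold enrichment and −log10 q of each peak are the authors' values. A gene was called marked when a deposited broad peak came within 1 kb of its 5′ end in either direction. The ChIP-seq list marked 3 of the 8 genes, Ahrr, Cyp1a2 and Cyp1b1, against a background of 9.09% of 32968 placed genes. The CUT&RUN list marked 2, Ahrr and Cyp1a2, against 13.2% of placed genes. Both lists marked Ahrr and Cyp1a2, against 5.95% of placed genes.

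Ahrr was marked within the 1 kb window in both assays, but only the CUT&RUN peak reached its 5′ end. With a window of 500 bp it was no longer marked in ChIP-seq. The CUT&RUN peak at chr13:74292145-74293223 spanned the 5′ end with a fold of 2.69, and the ChIP-seq peak at chr13:74291023-74291545 lay 786 to 1308 bp into the gene with a fold of 3.27. The median fold was 3.29 over the 41159 ChIP-seq peaks and 3.04 over the 66242 CUT&RUN peaks. The ChIP-seq peak was thus near its median, while the CUT&RUN peak was among the weakest by fold, with 2.87% of that list below it. Each assay placed 6 peaks over the gene body of Ahrr, covering 3.83% of it in ChIP-seq and 6.62% in CUT&RUN.

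Among the peaks inside the windows, the one with the highest fold and −log10 q was that of Cyp1b1, at chr17:79713646-79714663 in ChIP-seq, 378 to 1395 bp into the gene, with a fold of 3.98 and a −log10 q of 3.16. In CUT&RUN its window was free of peaks, and the nearest one lay 2247 to 2474 bp into the gene. Only this ChIP-seq peak among those in the windows passed a −log10 q of 3. With that stricter threshold the ChIP-seq list marked 1 of the 8 genes, against 1.30% of placed genes, and the CUT&RUN list marked 0, against 0.567%.

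At the Cyp1a pair the mark lay on Cyp1a2 and in the body of Cyp1a1 rather than at the start of Cyp1a1. The Cyp1a2 peaks ran 524 to 1861 bp into the gene in ChIP-seq (fold 3.59) and 160 to 1368 bp into it in CUT&RUN (fold 3.27), and peaks covered 35.9% of the gene in ChIP-seq and 53.7% in CUT&RUN. The window of Cyp1a1 held no peak in either assay. Its nearest peaks lay 2301 to 2694 bp into the gene in ChIP-seq and 2445 to 5466 bp into it in CUT&RUN, where they covered 48.7% of the gene. In the 13957 bp between the 5′ ends of the pair, ChIP-seq had 0 peaks and CUT&RUN had 1 peak of 1386 bp. Cyp1a1, with the steepest rise, was thus not marked at its start, while Cyp1a2, marked in both assays, stayed at 8 fragments or fewer in every library.

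Ahr, Arnt, Tiparp and Nqo1 had no peak over the gene in either assay. The nearest peak to the 5′ end lay 299376 bp away for Ahr, 110630 bp for Arnt, 337767 bp for Tiparp and 26554 bp for Nqo1 in ChIP-seq. In CUT&RUN the distances were 313927 bp for Ahr, 73982 bp for Arnt, 48381 bp for Tiparp and 165295 bp for Nqo1. Among all tested genes, 93 of the 512 marked in both assays were called higher with auxin (18.2%), against 1481 of the 12060 marked in neither (12.3%). The 4 members that rose therefore differed in their windows of 1 kb without auxin: Ahrr was marked in both assays, Cyp1b1 in ChIP-seq alone, and Cyp1a1 and Nqo1 in neither. Outside the windows, both assays placed peaks in the bodies of Ahrr and Cyp1a1, and CUT&RUN placed one in the body of Cyp1b1 (fold 3.61). CUT&RUN also placed peaks within 10 kb upstream of Cyp1b1, Cyp1a1 and Ahrr (fold 3.31 for Ahrr), and none lay over Nqo1. H3K27me3 with auxin was not analysed here, so the part of the mark in these changes was not tested.

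**Figure D4:**
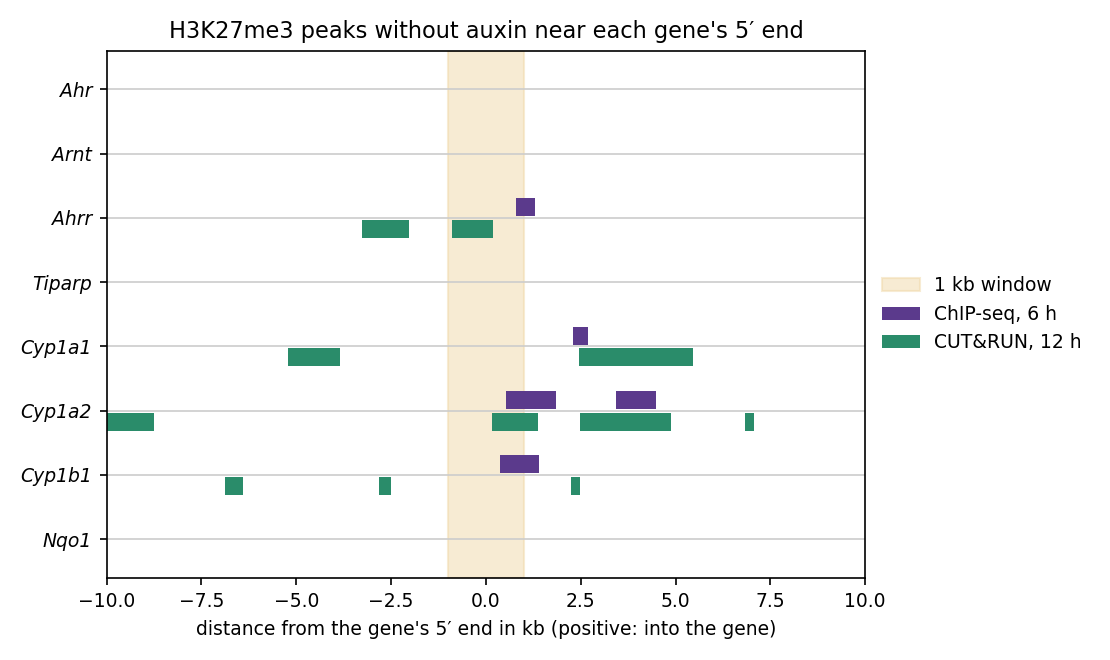
H3K27me3 peaks of cells without auxin within 10 kb of the 5′ end of each of the 8 genes, as distance in kb, positive into the gene. Purple bars are ChIP-seq peaks at 6 h, green bars are CUT&RUN peaks at 12 h, and the shaded band is the window of 1 kb on either side. Bars enter the band for Ahrr, Cyp1a2 and Cyp1b1, and the lines of Ahr, Arnt, Tiparp and Nqo1 are empty.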

How the data were processed

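RNA counts of 4 libraries and 2 lists of H3K27me3 peaks were analysed. The deposited counts are whole fragments per gene name, made by the authors with featureCounts 1.6.3 over mm10 exons on the reverse strand, per the file headers. The submitters' processing notes also name STAR 2.6.1d, Bowtie2 2.4.1 and MACS2 2.1.1. Each deposited peak list gives, per broad peak of 1 sample, the authors' score, fold enrichment, −log10 p and −log10 q. The sources used here give neither the peak cutoff nor the control library. In the lists −log10 q started at 1.02 for ChIP-seq and 1.00 for CUT&RUN, and the depth of these libraries is unknown.

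The test was edgeR 4.0.16 under R 4.3.3 (default filter of about 10 reads in 2 libraries, TMM factors, quasi-likelihood F test, two-sided, Benjamini-Hochberg adjustment over all 13522 tested genes, threshold 0.05), without a block. The code was tested on simulated data. CPM used TMM-scaled library sizes. Standard errors were derived from the F statistic (absolute log2 fold change divided by the root of F). Counting intervals of ratios are exact (95%). Alternatives were DESeq2 1.42.0, RLE and upper-quartile factors, no filter, the replicate block, and each library left out. Replicates were not merged, because their counts differed beyond sampling noise: chi-square divided by its degrees of freedom was 11.1 with auxin and 3.86 without.

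A peak marked a gene when it overlapped by at least 1 bp the 1 kb before or after the 5′ end in the count table (38 of 33006 genes could not be placed). Promoter sequences matched 7 of the 8 genes by symbol. The genes named were the 8, Npm1, up to 3 called genes per list with the smallest p and any count of 5 or fewer, genes within 100 kb of a member called with at least 4-fold change, and the 5 genes nearest to Cyp1a1 in profile. The genes and lists were chosen with earlier results of these data known. Other genes named (Gclm, Gclc, Pgd, Gstm1, Osgin1, Tkt, Hmox1, Aldh3a1, Parp10, the markers and genes at 0) were picked after their values were seen. Input, IgG, auxin and PRC2 inhibitor chromatin samples were not analysed here.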

Additional observations from a re-analysis of the deposited data

How the results depend on the processing

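The rises of Cyp1a1, Cyp1b1, Ahrr and Nqo1 were called under all 9 alternatives. The count of members called higher was 4, and 5 with Ahr under the replicate block, without the filter, with upper-quartile factors and without the first auxin library. Under the replicate block, 2972 genes were called higher and 3177 lower, against 1759 and 1964, and 1 member, Tiparp, was called lower (adjusted p = 0.0281, edgeR). Samples of the same number correlated at 0.227 in their deviations, and nothing in the labels says that a number marks a shared batch, so the libraries were not treated as paired. DESeq2 called 949 genes higher. With 1 library left out, 1102 to 1726 genes were called higher, 1110 to 1882 lower, and 0 to 1 members lower. The lowest of these counts came without the first library without auxin, and the cause was not tested. A lone library was assumed to vary like the other group. The Arnt change turned to 0.014 with upper-quartile factors and lay between −0.068 and 0.041 with 1 library left out, and that of Tiparp lay between −0.38 and 0.061. The window of 500 bp left 1 member marked in ChIP-seq, against 6.08% of placed genes. A −log10 q of at least 3 left 1 in ChIP-seq, against 1.30% of placed genes, and 0 in CUT&RUN, against 0.567%. Low counts limit Cyp1a2, and without auxin also Ahrr, Cyp1a1 and Cyp1b1.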
